A study of Mus musculus with 7 samples.

Results

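Axon guidance ligands and receptors were examined in sorted mouse mammary cells as 74 genes of the 17096 genes tested on the arrays. Members were chosen by symbol: the semaphorins of classes 3 to 7 (20 genes), plexins (9), neuropilins (2), Slits (2), Robos (4), netrins (4), the netrin receptors Dcc, Neo1 and Unc5a to Unc5d (6), A ephrins (4), B ephrins (3), EphA receptors (9), EphB receptors (4), teneurins (4) and FLRTs (3). Slit3, Efna3 and Ephb2 had no probe set with that symbol alone and were not analysed here. Each gene was read from its probe set with the highest mean log2 intensity.

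Expression was measured on 7 Affymetrix arrays of 3 kinds of cells. The embryonic cells (3 arrays) were CD49fHi Lgr5Hi mammary cells of Lgr5-IRES-GFP female embryos at embryonic day 14, sorted as 2000, 2000 and 813 cells each array from female littermates pooled together. The luminal cells (2 arrays) were YFP+ cells of K8CREERT2/RosaYFP mice and the basal cells (2 arrays) YFP+ cells of K5CREERT2/RosaYFP mice, both 8 weeks after tamoxifen. Their YFP therefore marks cells in which a keratin 8 or keratin 5 promoter had driven Cre, and descendants of those cells; the age of these mice is not given in the labels. The labels mark these 4 arrays as analysed again, and their tissue field names an embryonic gland, which the titles and source names do not. Nothing in the labels says whether adult replicates came from separate mice, and the spread behind each p-value may be technical.

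Axon guidance cues are secreted or membrane-bound proteins that attract or repel growing axons, and the same proteins steer adhesion, migration and branching in epithelia and blood vessels. Semaphorins bind plexins, with neuropilins as co-receptors for the class 3 members; Slits bind Robos; netrins bind Dcc, neogenin and Unc5 receptors; and ephrins bind Eph receptor tyrosine kinases on neighbouring cells, with signals sent into both cells. In the mammary gland, netrin 1 with neogenin and Slits with Robo1 are known for their parts in holding the layers of the ducts together and in branching.

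Of the 74 members, 14 changed between luminal and basal cells, where a change is a difference of at least 2-fold (1 on the log2 scale) with a Benjamini-Hochberg adjusted p under 0.05 over all genes in limma. That share of 18.9% stood beside 6.81% of all 17096 genes. The direction was mostly toward basal cells: 1 member was higher in luminal cells, beside 3.57% of all genes, and 13 members (17.6%) were higher in basal cells, beside 3.24% of all genes. The members had a median difference, luminal minus basal, of -0.20, against 0.02 over all genes. Luminal and basal arrays did not overlap for 55 of the 74 members, beside 10129 of all 17096 genes. With so few arrays, lack of overlap was thus common. The fold in that rule is the fitted one; for Slit2, Ntn4 and Ephb1 the luminal mean lay below background, and the bounds given with Slit2 and Ephb1 are under 2-fold. By role, 8 of 33 cues, 5 of 34 receptors and the teneurin Tenm2 changed. In 51 members at least 1 adult group lay above the background level, a log2 intensity of 5.76 set from genes restricted to other organs. The fit of all 7 arrays gave 13, beside 5.49% of all genes. On the adult arrays, the member count moved when an array was left out, and so did the count over all genes. Both counts were lowest without luminal replicate 1. A lone array was taken to have the spread of the pair it was set against. By the adjusted p alone 25 members passed, 5 higher in luminal cells (10.7% of all genes) and 20 in basal cells (6.14%).

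The labels were checked against markers first. Krt5, whose promoter drove the basal label, had log2 intensities of 9.13 and 9.56 in luminal cells, against 12.03 and 12.15 in basal cells. Krt8, the keratin behind the luminal label, had 11.05 and 11.03 in luminal cells, against 10.69 and 10.59 in basal cells, with a difference of 0.40 and a limma adjusted p of 0.0750, which missed the threshold. Of 13 luminal markers 9 changed and were higher in luminal cells (69.2%, beside 3.57% of all genes), and 12 had a positive difference. Of 11 basal markers 9 changed and were higher in basal cells (81.8%, beside 3.24% of all genes), and all 11 had a negative difference. Array medians lay between 5.05 and 5.08 on the log2 scale. With so few arrays, precision is limited by their number.

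**Figure D1:**
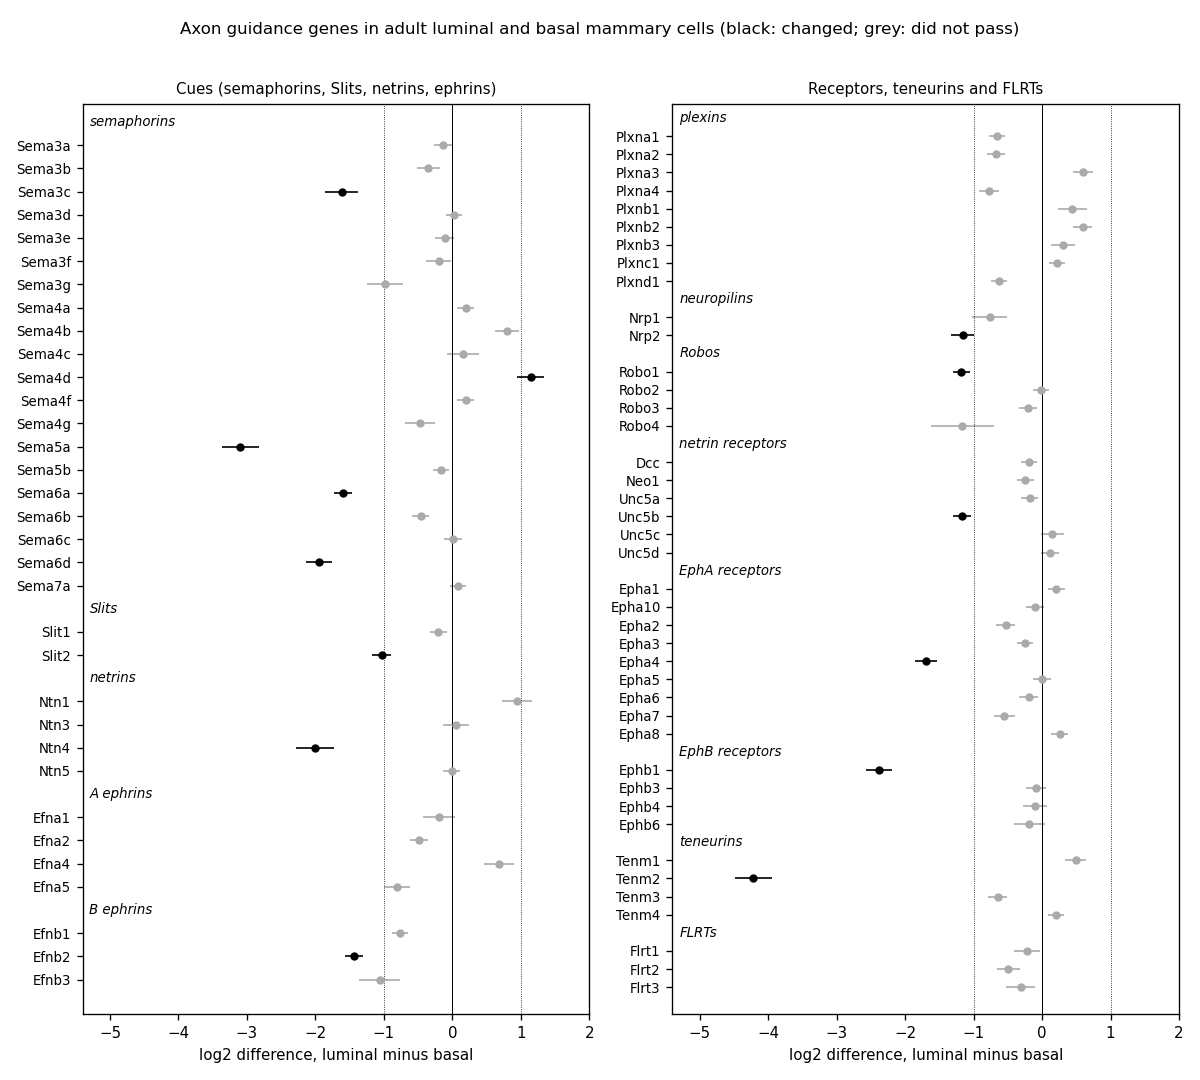
Log2 difference in intensity, luminal minus basal, for each of the 74 axon guidance genes, by family; points are limma estimates, bars 1 SE (2 arrays a group), and dotted lines mark 2-fold. The 14 changed genes are black, 13 of them left of zero, with Tenm2 farthest left at -4.22.

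Promoters of Tenm2, Sema5a, Ephb1 and Ntn4 are shown, since these 4 members had the largest fitted differences and all were higher in basal cells. For Ephb1 and Ntn4, whose luminal means lay below background, the fitted size is no bound. The sequences are those of RefSeq on GRCm38.p6, a window of 300 bases that ends shortly after the annotated start, written 5′ to 3′ on the strand of the gene. They lie at chr15:32244563-32244862 (plus strand) for Sema5a, chr10:93640799-93641098 (plus strand) for Ntn4, chr9:102354644-102354943 (minus strand) for Ephb1 and chr11:36944192-36944491 (minus strand) for Tenm2. Capitals mark matches, on either strand, to 4 motifs. The GC box bound by Sp factors was searched as GGGCGG. The TATA box, found at some start sites, was searched as TATAAA. The E box bound by the Snail and Zeb factors was searched as CACCTG. The site of the TEAD factors of Hippo signalling was searched as GGAATG.
Sema5a: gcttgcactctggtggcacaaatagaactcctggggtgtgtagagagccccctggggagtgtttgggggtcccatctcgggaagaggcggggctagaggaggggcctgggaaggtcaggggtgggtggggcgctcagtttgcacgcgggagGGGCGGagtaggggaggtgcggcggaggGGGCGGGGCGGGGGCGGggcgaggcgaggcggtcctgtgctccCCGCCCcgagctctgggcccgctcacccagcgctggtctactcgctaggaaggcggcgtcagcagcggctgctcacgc
Ntn4: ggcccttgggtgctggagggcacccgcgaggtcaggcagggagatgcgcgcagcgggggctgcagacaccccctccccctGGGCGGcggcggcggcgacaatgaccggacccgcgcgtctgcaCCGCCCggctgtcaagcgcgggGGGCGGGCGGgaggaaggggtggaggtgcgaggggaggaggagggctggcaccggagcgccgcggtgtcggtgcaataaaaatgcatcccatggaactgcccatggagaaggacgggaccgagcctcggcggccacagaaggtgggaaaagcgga
Ephb1: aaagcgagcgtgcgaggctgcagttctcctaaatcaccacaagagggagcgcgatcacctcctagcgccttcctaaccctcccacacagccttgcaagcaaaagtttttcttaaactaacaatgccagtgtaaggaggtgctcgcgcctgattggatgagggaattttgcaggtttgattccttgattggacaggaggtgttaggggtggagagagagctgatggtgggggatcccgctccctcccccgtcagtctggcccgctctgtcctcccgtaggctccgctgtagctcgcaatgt
Tenm2: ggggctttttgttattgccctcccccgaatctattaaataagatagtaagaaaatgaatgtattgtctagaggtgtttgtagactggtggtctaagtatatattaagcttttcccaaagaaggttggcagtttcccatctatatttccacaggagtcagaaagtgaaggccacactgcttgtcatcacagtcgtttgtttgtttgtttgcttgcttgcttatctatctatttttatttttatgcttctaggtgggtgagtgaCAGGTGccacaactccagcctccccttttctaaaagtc
GC boxes are in the Sema5a and Ntn4 promoters, which are 71.3% and 72.0% G or C, and some of these matches overlap. The Tenm2 promoter holds the E box and is 40.0% G or C, and the Ephb1 promoter, at 55.7%, holds none of the 4 motifs. Over 16 promoters of 13 changed members found in the table, 62.5% held a GC box, 12.5% a TATA box, 25.0% the E box and 6.25% a TEAD site. Among 32851 promoters of all genes these shares were 35.7%, 13.6%, 20.2% and 14.7%; among 79 promoters of 63 members they were 64.6%, 3.80%, 13.9% and 13.9%. Such matches are descriptions of the sequence.

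Semaphorins held 5 of the changed members, 4 of them higher in basal cells. Sema5a, a transmembrane semaphorin with thrombospondin repeats, had log2 intensities of 6.39 and 7.18 in luminal cells, against 9.75 and 10.01 in basal cells. Both basal arrays lay far above both luminal arrays, an 8.56-fold difference (luminal minus basal -3.10 ± 0.27, SE, n = 2 and 2 arrays, limma adjusted p = 0.00374). Sema6d, a transmembrane semaphorin that binds plexin A1, had 5.76 and 6.14 in luminal cells, against 7.72 and 8.08 in basal cells. The groups did not overlap, and the luminal arrays were at or just above the background level (-1.94 ± 0.19, limma adjusted p = 0.00489). Sema6a, which binds plexins A2 and A4, had 8.07 and 8.05 in luminal cells, against 9.55 and 9.76 in basal cells. Here the spread within each group was small next to the difference of -1.60 ± 0.13 (limma adjusted p = 0.00333).

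Sema3c, a secreted semaphorin that signals through neuropilins and plexin D1, had 8.13 and 7.45 in luminal cells, against 9.32 and 9.50 in basal cells. The luminal arrays stood 0.68 apart, less than the 1.61 ± 0.24 by which luminal cells were lower (limma adjusted p = 0.0124). Sema4d, a membrane-bound ligand of B plexins, was the member higher in luminal cells: 8.14 and 7.95 in luminal cells, against 6.64 and 7.16 in basal cells. Its groups did not overlap, and the difference was 1.14 ± 0.20 (limma adjusted p = 0.0191). The call on Sema4d was not kept without luminal replicate 1, luminal replicate 2 or basal replicate 1, fits that leave 1 array in a group. Its difference there was 1.05, 1.24 and 0.88, the last under 2-fold. Without basal replicate 2 it was 1.41.

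Of the other 15 semaphorins, Sema4b passed the adjusted p without reaching 2-fold, with 8.79 and 8.55 in luminal cells, against 7.68 and 8.06 in basal cells (0.80 ± 0.18, limma adjusted p = 0.0349). Sema3f and Sema4a, both above background in every adult array, had differences of -0.20 ± 0.18 and 0.19 ± 0.13, and neither passed. Sema3b did not pass at -0.35 ± 0.17. Its other probe sets gave -1.09 and -0.50, both with luminal values below background. Sema3a, a well-known axon repellent, lay below background in both groups, at means of 5.27 and 5.40, as did Sema3d, Sema3e, Sema4c, Sema4f, Sema5b, Sema6c and Sema7a. Differences near zero in such genes do not show equal expression.

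Both neuropilins had lower values in luminal cells, and Nrp2 changed. Nrp2, a co-receptor of class 3 semaphorins and of VEGF-C, had 6.06 and 6.26 in luminal cells, against 7.14 and 7.50 in basal cells. The arrays of the groups stood apart by more than those within a group (-1.16 ± 0.17, limma adjusted p = 0.0116). Nrp1, which also binds VEGF-A, had 6.91 and 7.40 in luminal cells, against 7.62 and 8.22 in basal cells. Its groups did not overlap, but -0.77 ± 0.25 missed the threshold (limma adjusted p = 0.0990). The Nrp2 call was lost without luminal replicate 1 (limma adjusted p = 0.0843) or luminal replicate 2 (0.0522), and without basal replicate 2 the difference was -0.98, just under 2-fold.

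None of the 9 plexins reached 2-fold in limma by the probe set used. Of them, 6 had an unadjusted p under 0.05, beside 31.6% of all genes. Those 6 also had an adjusted p under 0.05, beside 16.8% of all genes, and they ran in both directions. Among them, Plxna1 (-0.66 ± 0.12), Plxna2 (-0.68 ± 0.14), Plxna4 (-0.78 ± 0.14) and Plxnd1 (-0.63 ± 0.12) were lower in luminal cells. Plxna3 (0.60 ± 0.15) and Plxnb2 (0.59 ± 0.14) were higher in luminal cells. Plxnb2, a receptor of Sema4c and Sema4d, had 9.02 and 8.94 in luminal cells, against 8.26 and 8.52 in basal cells. Plxnb1, the other main Sema4d receptor, had 6.99 and 6.46 in luminal cells, against 6.13 and 6.44 in basal cells. Its arrays nearly met, and its difference was 0.44 ± 0.21 (limma adjusted p = 0.232, not passing). Limma adjusted p-values of the 6 ran from 0.0201 to 0.0452, and each of the 6 fitted differences was between 1.5-fold and 2-fold. For Plxna2 and Plxna4 the luminal means, 5.72 and 5.04, lay below background, so their fitted sizes are no bound. The basal mean of Plxna4, 5.81, was itself close to background. The other Plxna2 probe sets above background gave -1.03 and -0.59. The other Plxna4 probe set, below background in both groups, gave -1.35.

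Slit2 and Robo1 were both lower in luminal cells. Robo1, the Slit receptor known from mammary ducts, had 8.08 and 7.91 in luminal cells, against 9.20 and 9.14 in basal cells. Replicates lay close together and the groups stood apart (-1.18 ± 0.13, limma adjusted p = 0.00589). Slit2 had 5.30 and 5.11 in luminal cells, against 6.16 and 6.31 in basal cells (-1.03 ± 0.14, limma adjusted p = 0.00955). Since luminal Slit2 lay below the background level, the data give only that it was at least 1.39-fold lower in luminal cells. Slit2 was also the changed member nearest to the 2-fold limit, and without luminal replicate 2 the difference was -0.93 (limma adjusted p = 0.0621). Without luminal replicate 1 its limma adjusted p was 0.0537, and without basal replicate 2 its difference was -0.95. Slit1, at means of 5.75 in luminal and 5.96 in basal cells, did not pass. Robo2 (3.03 and 3.04) and Robo3 (3.58 and 3.79) lay far below background in luminal and basal cells alike.

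Among netrins, Ntn4 and Ntn1 differed in opposite directions. Ntn4, a laminin-related netrin of basement membranes, had 5.68 and 5.50 in luminal cells, against 7.18 and 8.01 in basal cells. Both luminal values were below background, and the basal arrays stood 0.83 apart, so Ntn4 was at least 3.57-fold lower in luminal cells (-2.00 ± 0.28, limma adjusted p = 0.0103). That call was lost without luminal replicate 1 (limma adjusted p = 0.0637) or luminal replicate 2 (0.0632). Ntn1, the cue that attracts commissural axons, had 7.29 and 6.85 in luminal cells, against 5.90 and 6.35 in basal cells. Its difference of 0.95 ± 0.22 passed the adjusted p (limma, 0.0395) and fell short of 2-fold. Ntn3 and Ntn5 had differences of 0.05 and -0.01 and did not pass.

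Of the netrin receptors only Unc5b changed among the 6 measured. Unc5b, a repulsive netrin receptor also known from endothelium, had 7.39 and 7.58 in luminal cells, against 8.60 and 8.72 in basal cells. Every luminal array lay at least 1 log2 unit below every basal array (-1.17 ± 0.13, limma adjusted p = 0.00670). In the fit that also took in the embryonic arrays, Unc5b was the changed member that was lost (limma adjusted p = 0.0741), as it was without luminal replicate 1 (0.0561). Neo1, the neogenin gene, had 8.37 and 8.38 in luminal cells, against 8.56 and 8.67 in basal cells, and its difference of -0.24 ± 0.12 did not pass. Dcc had 6.09 and 6.12 in luminal cells, against 6.31 and 6.28 in basal cells, and did not pass either. Its other probe sets lay far below background, at group means from 3.05 to 3.15, so expression of Dcc is uncertain. Unc5c and Unc5d lay below background in both groups.

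The 3 ephrins that passed the adjusted p, Efnb2, Efnb1 and Efna5, were all lower in luminal cells. Efnb2, a transmembrane ligand of EphB receptors and EphA4, had 7.96 and 8.08 in luminal cells, against 9.35 and 9.56 in basal cells. The groups stood well apart (-1.44 ± 0.14, limma adjusted p = 0.00447). Efnb1 had 7.58 and 7.53 in luminal cells, against 8.33 and 8.32 in basal cells. Its replicates were nearly identical and its difference of -0.77 ± 0.12 passed the adjusted p (limma, 0.0132) below 2-fold. Efnb3 had 5.81 and 5.82 in luminal cells, against 6.42 and 7.34 in basal cells, and its -1.06 ± 0.30 missed the threshold (limma adjusted p = 0.0646). None of the 4 A ephrins reached a call in limma, and 3 of them had an unadjusted p under 0.05, beside 31.6% of all genes. These 3 ran in both directions. Efna5 had 8.46 and 8.08 in luminal cells, against 8.90 and 9.24 in basal cells (-0.80 ± 0.19, limma adjusted p = 0.0419, under 2-fold). Efna4 had 7.04 and 6.65 in luminal cells, against 5.92 and 6.40 in basal cells, and its 0.68 ± 0.22 missed the threshold (limma adjusted p = 0.0902).

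Eph receptors changed in 1 member of each class. Epha4, a receptor for both A and B ephrins, had 6.98 and 7.10 in luminal cells, against 8.55 and 8.93 in basal cells. It was 3.25-fold lower in luminal cells, with no overlap (-1.70 ± 0.16, limma adjusted p = 0.00462). Ephb1, a receptor of B ephrins, had 4.25 and 3.93 in luminal cells, against 6.27 and 6.68 in basal cells. Luminal values lay below the background level, so Ephb1 was at least 1.64-fold lower in luminal cells; the fitted difference was -2.39 ± 0.19 (limma adjusted p = 0.00333). Epha2, a receptor of Efna1 common in epithelia, had 8.22 and 7.94 in luminal cells, against 8.65 and 8.57 in basal cells, and did not pass (-0.53 ± 0.15, limma adjusted p = 0.0595). Ephb4, the partner of Efnb2 in veins and arteries, had 8.26 and 8.15 in luminal cells, against 8.10 and 8.52 in basal cells. Its groups overlapped, and the difference of -0.10 ± 0.17 did not pass, as was so for Ephb3 (-0.09 ± 0.15).

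Teneurins and FLRTs are transmembrane proteins that bind latrophilins across cell contacts. Tenm2 had 5.72 and 6.52 in luminal cells, against 10.27 and 10.40 in basal cells. That was the largest difference among the members, 18.6-fold, although the luminal arrays stood 0.81 apart (-4.22 ± 0.27, limma adjusted p = 0.00247). Its probe sets disagreed in size: of the others, 1 gave -2.03, 1 near background gave -0.11 and 1 below background in both groups gave -0.02. Tenm3 had 5.12 and 5.25 in luminal cells, against 5.71 and 5.95 in basal cells, and passed the adjusted p (limma, 0.0327) below 2-fold. Tenm4 (0.20 ± 0.12) and Tenm1 (0.49 ± 0.16) did not pass, and Tenm1 lay below background in both groups. The FLRTs had differences from -0.49 to -0.22 and none was called in limma. Flrt2 (-0.49 ± 0.17) had the 1 unadjusted limma p under 0.05 in that family, beside 31.6% of all genes.

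**Figure D2:**
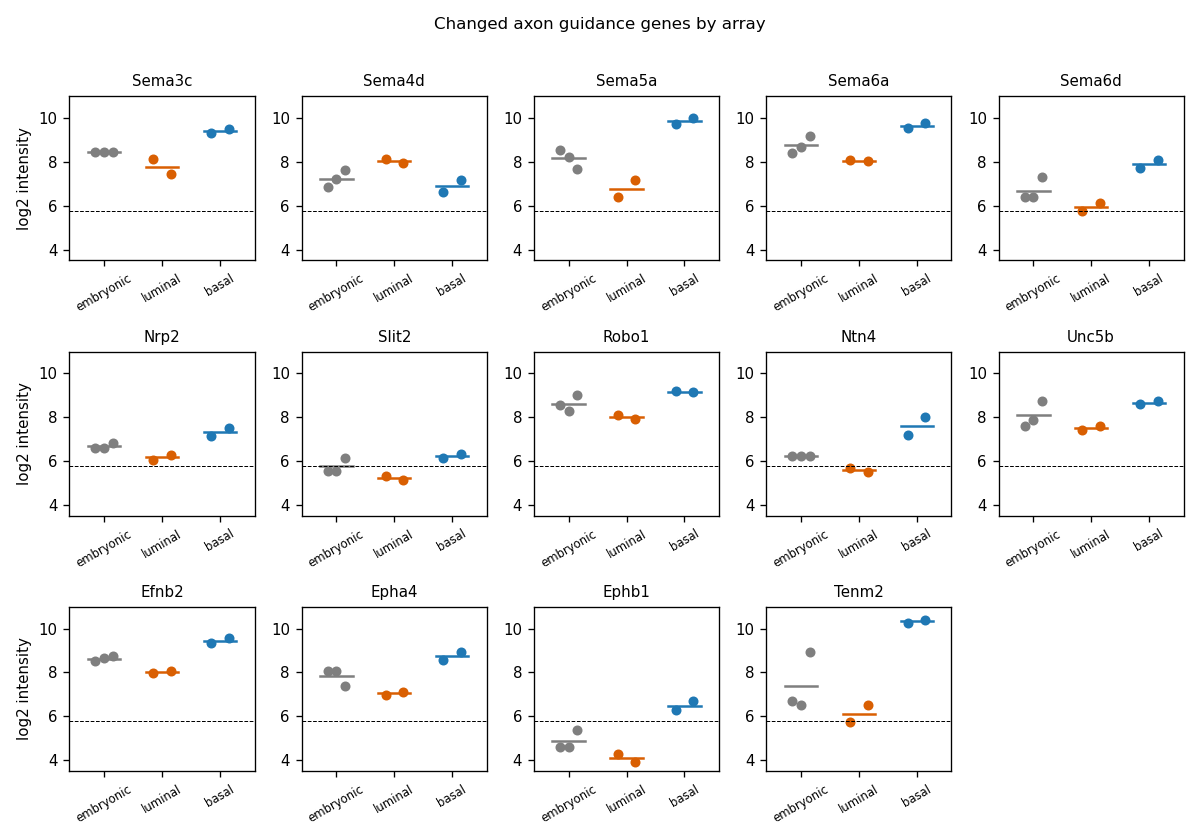
Log2 intensity of the 14 changed axon guidance genes in each array, with embryonic (3 arrays), luminal (2) and basal (2) cells from left to right; horizontal bars are group means and the dashed line is the background level of 5.76. Basal points lie above luminal points in every panel except Sema4d, and for Tenm2 embryonic replicate 3 (8.93) lies apart from replicates 1 and 2.

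Other probe sets of the changed members were set beside the one used. Of the 14 genes, 11 had more than 1 probe set, with 21 further probe sets in all, of which 16 lay above background in an adult group. All 16 had the sign of the probe set used. Sema4d had 0.50 by its second probe set, and Sema6d had -1.13 by the only further probe set above background. With the mean over all probe sets of a gene, Sema4d (0.82), Sema6d and Slit2 no longer passed.

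**Figure D3:**
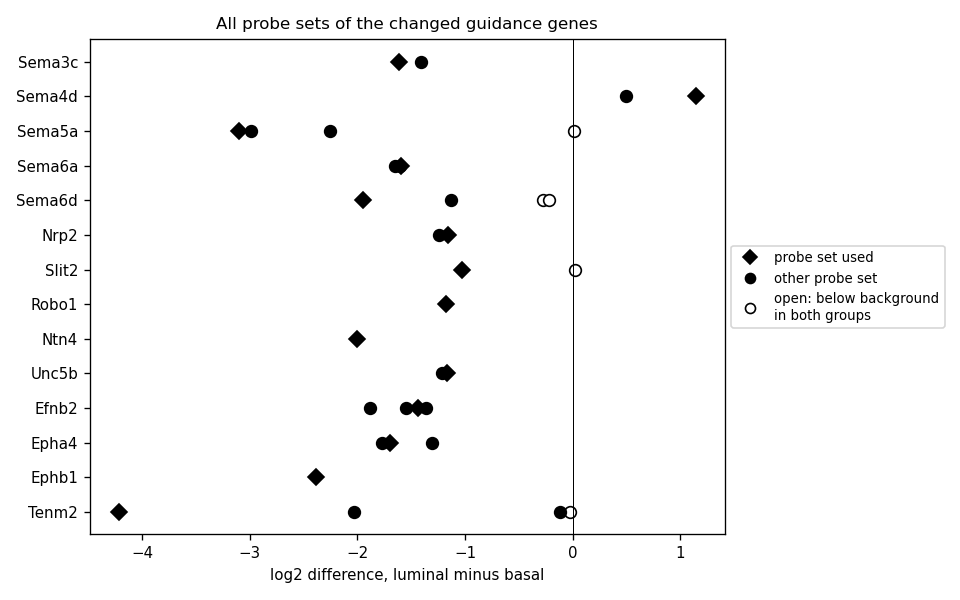
Log2 difference, luminal minus basal, for every single-gene probe set of the 14 changed genes; diamonds are the probe sets used, circles the others, and open symbols stayed below background in luminal and basal cells. Filled circles lie on the same side of zero as their diamond in every gene that has them, closest to zero for Tenm2 at -0.11.

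Known cue and receptor partners were read together over 49 listed pairs in which both genes were measured. In 3 of the listed pairs both genes changed, and in these both were higher in basal cells: Sema3c with Nrp2, Slit2 with Robo1, and Efnb2 with Epha4. The list was not complete. It did not pair Efnb2 with Ephb1, which both changed and were also higher in basal cells. It also left out Ntn4, which changed and was higher in basal cells, as was the netrin receptor Unc5b. The pairs share genes and are no independent observations. Luminal-higher Sema4d faced the B plexins, whose differences were also positive (0.44 for Plxnb1 and 0.59 for Plxnb2). For Ntn1, at 0.95, the receptor Unc5b had -1.17, Neo1 -0.24 and Dcc, whose other probe sets lay below background, -0.19.

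Genes that act with these ligands and receptors were read from lists of co-receptors and effectors. Of 31 other cues and co-receptors, 1 changed, a share of 3.23% beside 6.81% of all genes: Ptprs, a receptor tyrosine phosphatase that binds proteoglycans, had 8.77 and 8.75 in luminal cells, against 9.97 and 9.97 in basal cells. The latrophilin Adgrl3 (-0.62 ± 0.12) passed the adjusted p below 2-fold, and Adgrl1 (-0.27 ± 0.24) and Adgrl2 (-0.05 ± 0.20) did not pass. Of 47 effectors 8 changed (17.0%, beside the same 6.81%). Of these, 3 were higher in luminal cells (6.38% of the list, beside 3.57% of all genes) and 5 in basal cells (10.6%, beside 3.24%). The list's median difference was 0.01, that of the co-receptor list was -0.20.

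Of the 5 collapsin response mediators measured, a family that carries semaphorin signals to microtubules, 2 changed, Dpysl3 and Dpysl2, and both were higher in basal cells. Dpysl3 had 6.26 and 6.68 in luminal cells, against 9.25 and 9.62 in basal cells (-2.97 ± 0.20, limma adjusted p = 0.00247). Dpysl2 had 8.67 and 8.62 in luminal cells, against 10.50 and 10.73 in basal cells (-1.97 ± 0.14, limma adjusted p = 0.00247). Dpysl5 had a difference of the other sign (1.35 ± 0.36), with 8.14 and 8.04 in luminal cells, against 7.32 and 6.16 in basal cells, and did not pass (limma adjusted p = 0.0582). Dpysl4 (0.17 ± 0.14) and Crmp1 (-0.14 ± 0.12) did not pass either. Mical2, an actin-oxidising enzyme, and Fyn, a kinase downstream of plexins and Ephs, were 3.60-fold and 2.72-fold higher in basal cells. On the luminal side, Grb7, an adaptor that binds Eph receptors, was 3.76-fold higher. Adam10, the protease that cleaves ephrins and Ephs, was 2.54-fold higher in luminal cells.

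Endothelial and fibroblast markers lay higher on the basal side. All 13 endothelial markers had lower means in luminal cells (median -0.91); 1 of them, Esam, changed (7.69%, beside 6.81% of all genes), and 11 had an unadjusted p under 0.05, beside 31.6% of all genes. Their summed intensity was 518 and 865 in luminal cells, against 1196 and 1886 in basal cells. Fibroblast markers were lower in luminal cells in 11 of 12, with 4 changed (33.3%, beside the same 6.81%) and sums of 3335 and 5439 in luminal cells, against 9193 and 11187 in basal cells. Pericyte marker sums, 676 and 770 in luminal cells, against 570 and 852 in basal cells, overlapped. In these bulk samples fewer cells of a type and less RNA per cell cannot be told apart. The sums take in genes at or below background, a level of 54.2 a gene on the linear scale. Of the 13 endothelial markers, 9 lay above background in an adult group, Pecam1 and Cdh5 among them. Sox17, Tek, Cldn5 and Esam did not. Neural and Schwann markers had 0 of 10 members changed in limma and a median of -0.17, with 2 at an unadjusted p under 0.05.

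Among 7 guidance genes known in endothelium, picked with their values in view, the gap between the basal arrays varied. Robo4, the endothelial Robo, had 3.92 and 4.58 in luminal cells, against 4.75 and 6.08 in basal cells. The basal arrays stood 1.33 apart, and -1.16 ± 0.45 missed the threshold (limma adjusted p = 0.147). Sema3g, another endothelial gene, had 4.76 and 4.97 in luminal cells, against 5.47 and 6.23 in basal cells, and did not pass (limma adjusted p = 0.0548). Basal replicate 2 stood 0.75 above basal replicate 1 for Sema3g, 0.59 for Nrp1, 0.42 for Ephb4, 0.21 for Efnb2, 0.13 for Unc5b and 0.07 for Plxnd1. Endothelial markers were a median 0.73 higher in basal replicate 2 than in basal replicate 1, while the same step was 0.20 over the 74 members and 0.03 over all genes. For fibroblast markers the median step was 0.36, and for pericyte markers 0.55. Luminal markers stepped up as well, by a median of 0.34, and basal markers by 0.12. Over the 14 changed members the step had a median of 0.24, was positive in 13 and ran from -0.06 for Robo1 to 0.83 for Ntn4. In that basal step only Ntn4 was at or above the endothelial median. Next came Sema4d at 0.52, Ephb1 at 0.41, Epha4 at 0.37 and Sema6d at 0.36, which like Ntn4 were at or above the fibroblast median. Luminal replicate 2 minus luminal replicate 1 had a median of 0.53 for endothelial, 0.67 for fibroblast and 0.08 for pericyte markers. It was 0.05 over the 74 members and -0.01 over all genes. Over the 14 changed members that luminal step ran from -0.68 for Sema3c to 0.81 for Tenm2, with 0.79 for Sema5a. The part of other cell types in the luminal and basal difference of the members was not tested.

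**Figure D4:**
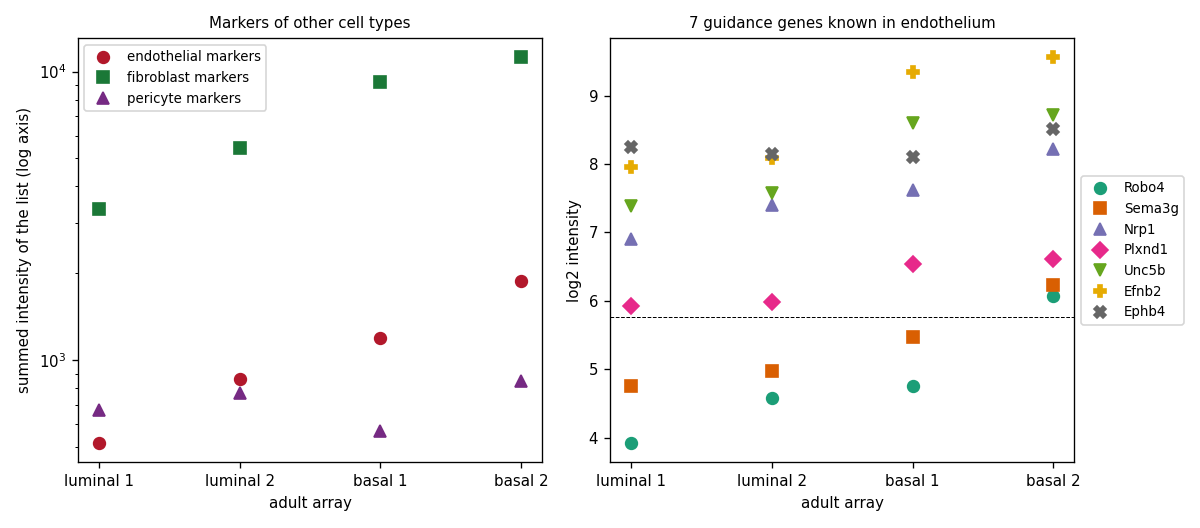
Left, summed intensity (log axis) of endothelial, fibroblast and pericyte marker lists in the 4 adult arrays; right, log2 intensity of 7 guidance genes known in endothelium in the same arrays, with the background level of 5.76 dashed. Endothelial and fibroblast sums are lowest in luminal replicate 1 and highest in basal replicate 2 (1886 and 11187), and so are the 7 genes except Ephb4, which is lowest in basal replicate 1 (8.10).

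Embryonic levels lay near the midpoint of the 2 adult groups for most members. The embryonic mean minus that midpoint had an SD of 0.14 over the 74 members, against 0.88 for luminal minus basal, and over all genes the SDs were 0.10 and 0.55. For 69 members the embryonic mean fell between the adult means, as it did for 89.3% of all genes. Embryonic replicates 1 and 2 held the same value for 21 members, beside 36.1% of all genes, and in all 3 embryonic replicates for 8 members, beside 12.1%. Ntn4, at 6.22 in all 3, and Sema3c, at 8.47 in all 3, were among them. Whether the embryonic columns were adjusted to the adult ones is not given in the sources used here, so the embryonic values describe the table more than the cells.

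With that limit, no member changed between embryonic and basal cells or between embryonic and luminal cells in the limma fit over 7 arrays, which share the embryonic arrays. All genes changed at 0.0702% against basal and at 0.0234% against luminal cells, and 18 and 17 members had an unadjusted p under 0.05, beside 9.25% and 12.0% of all genes. Without embryonic replicate 3, the array of 813 cells, 4 members changed against basal cells, beside 0.521% of all genes, and 2 against luminal cells, beside 1.27%. With the replicate number as a block the counts were 4 against basal cells, beside 0.515% of all genes, and 1 against luminal cells, beside 1.06%. Tenm2 had 6.67, 6.51 and 8.93 in embryonic cells, a difference of 1.25 ± 0.73 against luminal cells and -2.96 ± 0.73 against basal cells. Unc5b was likewise highest in embryonic replicate 3, at 7.62, 7.89 and 8.75, and Sema5a lowest there, at 8.57, 8.25 and 7.67. The 14 changed members all had embryonic means between the adult means.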

How the data were processed

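Total RNA of sorted mammary cells was amplified, labelled and put on Affymetrix arrays; the labels' protocols, the source of this, have text that describes the embryonic preparation only. The deposited values are probe set intensities on a linear scale; RMA and affy are named in the submitters' processing notes, and how they were run, and whether the embryonic and adult arrays were adjusted to each other, is not given in the sources used here. Log2 of the deposited intensity was taken. The table's 45141 rows were reduced by 104 control probe sets and by 4 empty ones. The platform annotation gave 1 symbol to 28895 probe sets, several to 551 and none to 15587; 28686 matched the gene table by Entrez identifier and 0 symbols changed. The probe set with the highest mean stood for each of 17096 genes. The background level, 5.76 on the log2 scale, lay at percentile 95 of 142 probe sets, read for 102 genes of organs such as liver, retina and testis.

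Limma 3.58.1 in R 4.3.3 fitted luminal and basal means to the 4 adult arrays with eBayes (2 residual degrees of freedom, prior 3.73). The embryonic arrays, with many tied values, were left out of that fit and entered a fit of all 7 arrays (4 residual degrees of freedom) for the embryonic contrasts. P-values were adjusted over all genes; the fit was tested on simulated data. Where the lower group lay below background, the fold is given as at least the higher mean over the background level. All members could be named; of other lists, up to 4 changed genes a direction were, with genes of the labels, partners and others chosen after their values were seen. The members and lists were chosen with earlier results of these data known. Replicate numbers shared by luminal and basal arrays were not taken as pairs: deviations of luminal 1 and basal 1 correlated at 0.08 over genes. Alternatives covered the arrays fitted, probe set choice, dim genes, normalization, the prior, array weights, fold minimums, a replicate block and each array left out. Figures used matplotlib 3.10.9.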

Additional observations from a re-analysis of the deposited data

How the results depend on the processing

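The count of 14 changed members stayed within 1.5 times under the 7-array fit (13, all among the 14), the mean of all probe sets (12), the probe set of largest variance (17), genes above background only (13), quantile normalization (15), a trend and robust prior (15) and array weights (14). With the replicate number as a block, 15 members and 1208 genes changed. That block, with no sign in the labels that numbers pair samples, took no call from the 14. Without a fold minimum, 25 members (5 higher in luminal and 20 in basal cells), 2879 genes, 6 other cues and co-receptors and 13 effectors passed. At a fitted 4-fold or more, 4 members (Sema5a, Ntn4, Ephb1 and Tenm2), 161 genes, 0 other cues and co-receptors and 1 effector did; with luminal Ntn4 and Ephb1 below background, the data bound them at only 3.57-fold and 1.64-fold. With the mean of all probe sets, 0 other cues and co-receptors changed in limma. Leaving out each adult array gave 9 to 17 members and 519 to 1443 genes, against 1165 with all 4, with the lowest counts without luminal replicate 1; the cause was not tested beyond fewer samples. For embryonic cells, leaving out arrays gave 0 to 4 members changed against basal and 0 to 2 against luminal cells, and the replicate block gave 4 and 1, from 0 and 0; the cause was not tested. None of the 14 changed sign under the alternatives run. Among the other members 15 did under at least 1 of them; their differences were at most 0.20 in size with all 4 adult arrays, and none passed there or where its sign had changed. Only Sema5a and Tenm2 passed under all 14 alternatives, and Ephb1 under the 13 in which it was tested. One of the alternatives was the 4-fold minimum, the only one that Sema3c, Sema6a, Robo1, Efnb2 and Epha4 did not pass.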
